A study of Mus musculus with 36 samples.

Results

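The genes described here are 10 that move calcium in the cardiomyocyte: Atp2a2, Pln, Sln, Ryr2, Casq2, Cacna1c, Slc8a1, Hrc, Tmem38a and Jph2. They were chosen by name, as 10 of the 20720 nuclear genes listed in the count tables, and they are described in 1201 cardiomyocyte-like wells out of 13824 wells. A well held 1 cell sorted from the left ventricle, and 3146 wells reached the minimum of 1000 unique molecular identifiers (UMIs, tags that count each captured mRNA molecule once) from nuclear genes. The tissue came from the infarcted region, or its counterpart in sham hearts, of male C57BL/6 mice operated at 8 weeks of age. In ischemia-reperfusion (IR) the left anterior descending coronary artery was tied for 1 hour and released, and hearts were taken at day 1 (9 plates), day 3 (7 plates) or day 14 (3 plates). Permanent ligation of the same artery (MI) was sampled at day 3 (5 plates), and sham-operated hearts at day 1 (4 plates) and day 14 (8 plates). No sham plates were labelled day 3, so both day 3 groups were compared with all sham plates. Replicates are plates, the methods give fewer hearts than MI plates, the labels do not say which plates share a mouse, and p-values therefore measure the spread between plates, which may be partly technical. The MI plates carry a protocol label of their own, so that a batch and the ligation cannot be told apart.

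Calcium handling sets the heartbeat. At each beat calcium enters through the L-type channel, whose pore is Cacna1c, and opens the ryanodine receptor Ryr2, which releases the store of the sarcoplasmic reticulum held by the calcium buffers Casq2 and Hrc. Relaxation follows when the pump Atp2a2 (SERCA2) refills the store and the sodium-calcium exchanger Slc8a1 expels the rest. Pln (phospholamban) and Sln (sarcolipin) are small membrane proteins that inhibit the pump, Sln mainly in atria and skeletal muscle, Tmem38a is a potassium channel of the sarcoplasmic reticulum that balances charge during release, and Jph2 (junctophilin) ties the reticulum to the T-tubule. A lower ratio of pump to phospholamban is a known feature of failing heart.

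The cardiomyocyte-like wells were 248 in day 1 sham, 238 in day 14 sham, 36 at IR day 1, 299 at IR day 3, 361 at IR day 14 and 19 in MI. Whole plates held 176614 to 5551870 UMIs. Plates with at least 5 such wells entered the comparisons: 4, 5, 3, 5, 3 and 2 plates in that order, each with 6209 to 871533 UMIs from those wells. Day 14 sham replicates 2 and 7 matched well by well and were counted as 1 plate (named replicate 7 below) in every comparison over plates. Counts of wells hold both tables, and with the repeated plate entered once (without replicate 2, a choice made after seeing the data) the wells were 213 in day 14 sham and 1176 in all. Apart from the wells shared by replicates 2 and 7, 2 cardiomyocyte-like wells, both in day 14 sham, were copies of a well on another plate. The MI wells stood apart in quality: their median depth was 8820 UMIs against 1952 to 2436 in the other groups, the median mitochondrial share 5.83% against 75.6% to 83.5%, and the share of the ribosomal repeat Rn45s 4.01% against 18.2% to 25.3%. Cardiomyocyte markers took 6.33% to 12.5% of UMIs in every group and 7.88% in MI. All 19 MI wells fell into 1 cluster, led by the stress genes Sprr1a and Nppa, which also held 26 of 36 wells at IR day 1, 148 of 299 at IR day 3, 31 of 361 at IR day 14, 12 of 248 in day 1 sham and 5 of 238 in day 14 sham. On IR day 3 replicate 3, which gave 5 wells and 6209 UMIs, the median mitochondrial share was 28.4%, and results that rest on it are given with and without it.

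The genes lie on different chromosomes (GRCm38, GENCODE vM21): Atp2a2 at chr5:122453513-122502225 (minus strand, 21 exons), Pln at chr10:53337667-53345987 (plus, 2 exons), Ryr2 at chr13:11553102-12106945 (minus, 105 exons), Casq2 at chr3:102086415-102146514 (plus, 11 exons), Cacna1c at chr6:118587240-119196418 (minus, 47 exons), Slc8a1 at chr17:81373105-81738377 (minus, 8 exons), Hrc at chr7:45335290-45338974 (plus, 6 exons), Tmem38a at chr8:72572055-72587282 (plus, 6 exons), Jph2 at chr2:163336242-163397993 (minus, 6 exons) and Sln at chr9:53850164-53854560 (plus, 2 exons). The proximal promoters of Pln, Hrc and Casq2 are shown because these genes moved apart in MI hearts, Pln having been kept there and Hrc and Casq2 being among the members that fell furthest. Each line gives the 250 bases before the RefSeq start (GRCm38.p6, gene's own strand), with capitals marking matches on either strand. The motifs searched were TATAAA, the box of many start sites, then GGGCGG, bound by zinc finger factors of the Sp family, then AGATAA, the core bound by GATA factors, then CCAAT, bound by NF-Y, and the palindromic core of MEF2 sites.
Pln, chr10:53337436-53337685: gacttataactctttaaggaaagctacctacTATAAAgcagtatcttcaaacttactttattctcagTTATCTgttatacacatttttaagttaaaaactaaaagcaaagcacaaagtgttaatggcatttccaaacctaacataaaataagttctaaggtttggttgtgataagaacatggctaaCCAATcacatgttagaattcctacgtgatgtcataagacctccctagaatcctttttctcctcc
Hrc, chr7:45335019-45335268: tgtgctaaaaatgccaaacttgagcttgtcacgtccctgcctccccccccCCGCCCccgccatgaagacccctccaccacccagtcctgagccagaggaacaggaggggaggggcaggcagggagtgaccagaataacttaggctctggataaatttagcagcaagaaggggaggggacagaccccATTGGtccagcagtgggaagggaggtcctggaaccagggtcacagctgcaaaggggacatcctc
Casq2, chr3:102086165-102086414: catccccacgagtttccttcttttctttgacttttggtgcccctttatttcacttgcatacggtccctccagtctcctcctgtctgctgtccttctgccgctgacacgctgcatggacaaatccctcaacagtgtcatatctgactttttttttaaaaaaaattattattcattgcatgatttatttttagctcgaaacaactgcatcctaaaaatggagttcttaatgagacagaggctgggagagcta
The Pln window is AT-rich (GC content 32.8%) and holds 1 TATAAA, 1 GATA factor core and 1 CCAAT box. The Hrc window has a GC content of 59.6% with 1 Sp box and 1 CCAAT box. The Casq2 window (41.6%) holds none of the 5 motifs in the forms searched. Of 32851 mouse promoter windows of the same length, TATAAA was found in 12.4% and the Sp box in 32.7%. The GATA factor core was found in 9.99% and the CCAAT box in 33.8%. The palindromic MEF2 core was found in 3.2%, and none of the 3 windows shown holds it. Only this palindromic form was searched, so the windows, Casq2 included, may hold other forms of MEF2 sites. The E box (CANNTG), not capitalised, occurred 1 time in the Pln window, 1 time in Hrc and 2 times in Casq2, and in 66.2% of all windows. Of the 10 genes 8 had an entry.

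In sham cardiomyocytes the pump mRNA stood far above its partners. Levels between plates are given as a gene's UMIs per 1000000 UMIs after TMM scaling (scaled CPM), or without that scaling (unscaled CPM). A UMI counts a molecule once whatever its length, so these levels were compared between genes without dividing by length. In day 1 sham, Atp2a2 measured 18750 ± 5541 scaled CPM (mean ± SD, n = 4 plates), Hrc 3673 ± 842, Pln 3540 ± 621, Ryr2 2485 ± 573, Casq2 2234 ± 264, Tmem38a 1381 ± 293, Slc8a1 646 ± 149, Jph2 329 ± 59.5 and Cacna1c 275 ± 88.6. Plate values overlapped between Hrc and Pln, Pln and Ryr2, Ryr2 and Casq2, and Jph2 and Cacna1c, so these neighbours in the order did not separate, whereas Casq2, Tmem38a, Slc8a1 and Jph2 formed separate steps. The order in day 14 sham was close, with Atp2a2 at 27420 ± 8627 (n = 5 plates) and Hrc at 2395 ± 1166. Between the sham days 0 of the 9 tested genes passed an adjusted p of 0.05 in edgeR's quasi-likelihood test, where 0.704% of all 4405 tested genes (31) did. Without adjustment 415 of the 4405 genes had p under 0.05, and DESeq2 called 58 genes, also with 0 of the members. The called genes were 3 higher and 28 lower at day 14 in edgeR, and 16 and 42 in DESeq2.

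Sln was not detected in these ventricular cardiomyocytes. Its name is listed in 3 of the 36 tables, with 8 UMIs in 6 wells, and 0 of the 1201 cardiomyocyte-like wells held a UMI. A count of 0 among their 4727010 UMIs allows up to 0.635 CPM, and up to 0.25% of wells with a UMI. Sln was therefore not tested, and the counts below are out of 9 genes.

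**Figure D1:**
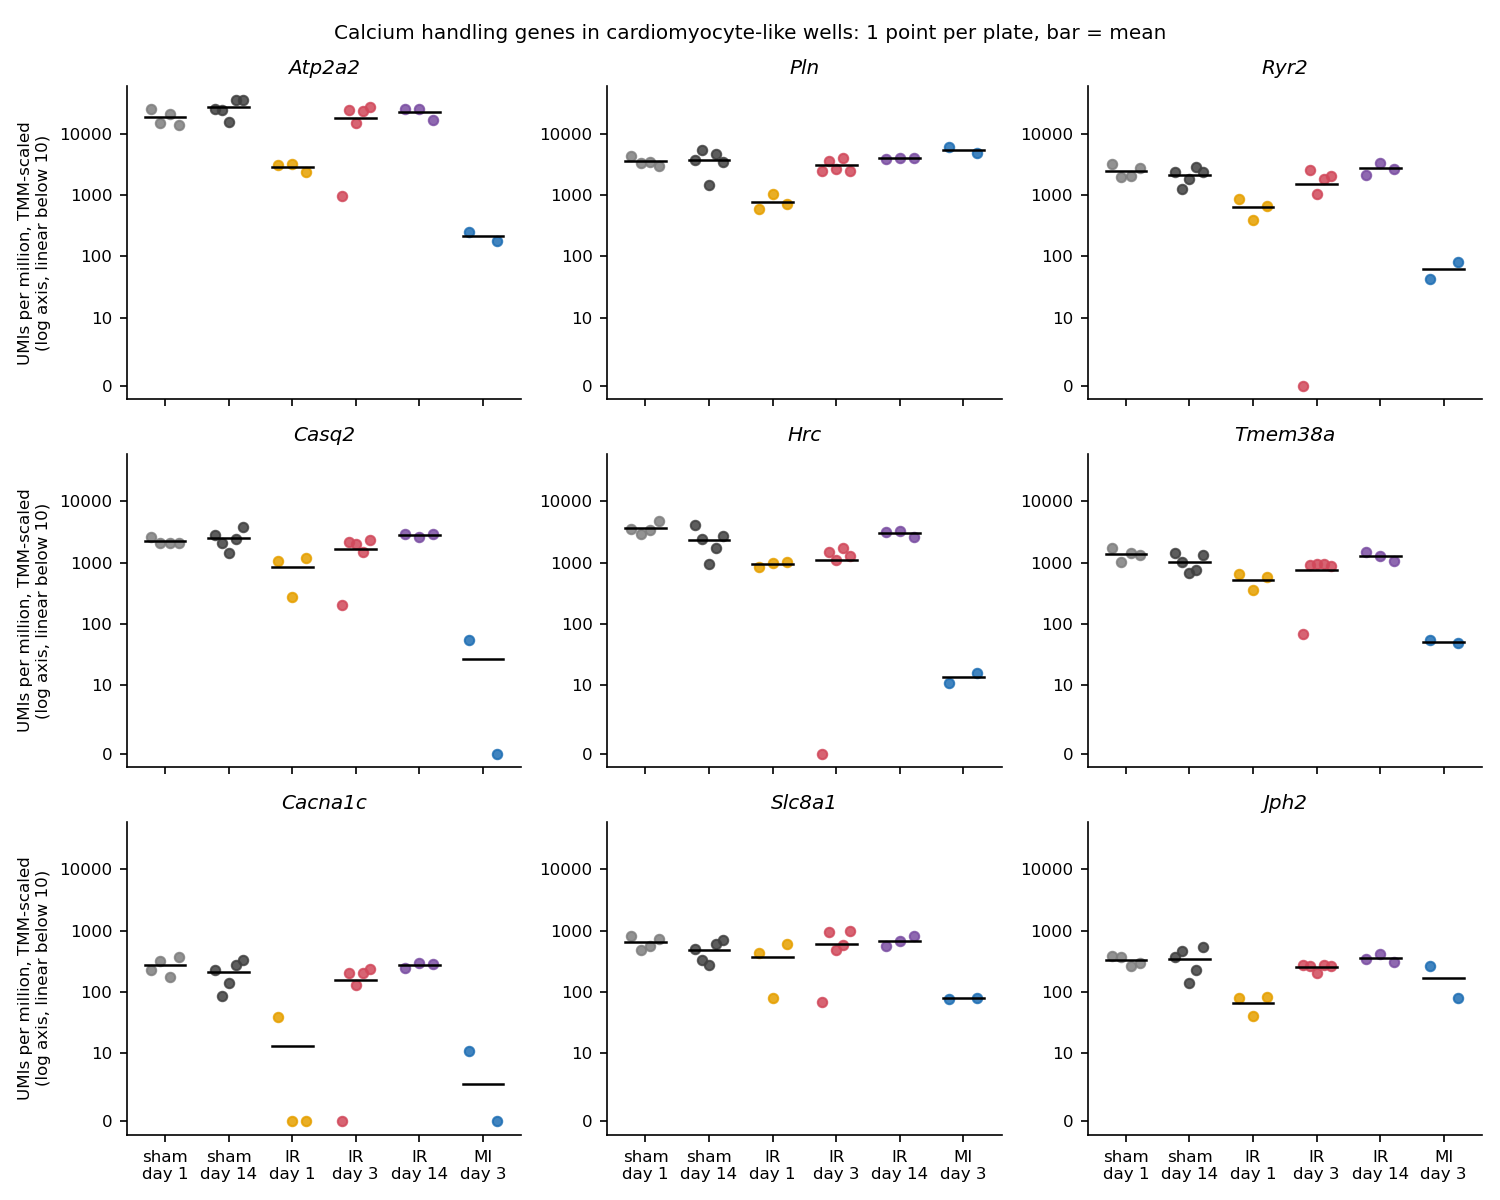
Levels of the 9 detected genes by plate (scaled CPM, log axis); points are plates with at least 5 cardiomyocyte-like wells, bars are group means. In MI Atp2a2 sat at 249 and 178 scaled CPM while Pln sat at 5972 and 4777, and the IR day 1 plates lay below the day 1 sham plates for every gene but Slc8a1.

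In the cardiomyocyte-like wells of permanently ligated hearts the pump mRNA was nearly lost while that of its inhibitor was not. The 2 fitted MI plates held 6 such wells each. Atp2a2 measured 249 and 178 scaled CPM on the MI plates, against 25720, 14850, 20640 and 13790 in day 1 sham and 24840, 24620, 15710, 35790 and 36140 in day 14 sham. The groups did not come near each other, and the fitted log2 fold change was -6.71 ± 0.81 (SE, edgeR adjusted p = 2.36e-10). Pln measured 5972 and 4777 scaled CPM on the same MI plates, against 4409, 3337, 3472 and 2942 in day 1 sham and 3753, 5359, 1460, 4623 and 3446 in day 14 sham. The highest MI plate lay above every sham plate and the other within their range, and Pln did not pass the test (log2 0.55 ± 0.39, edgeR adjusted p = 0.272). With median-ratio scaling (RLE) in place of TMM its difference passed (log2 0.81, edgeR adjusted p = 0.0307), and with DESeq2 too (log2 0.80, adjusted p = 0.0032). In none of these fits was Pln lower.

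Of the 9 genes 7 fell in MI against sham, where 21.7% of all 4405 tested genes fell and 35.1% passed in either direction. Each of the 7 had both MI plates below every sham plate, which held for 13.2% of all genes. Of 12 cardiomyocyte markers, 6 were likewise below every sham plate, 3 were above and 3 overlapped. Among the 6, Ttn stood at 643 unscaled CPM (19340 in day 1 and 21900 in day 14 sham) and Myh6 at 1702 (17240 and 19680). Their part in the result was not tested. The members' median log2 fold change was -5.07, against -0.25 for all genes. Over all genes 590 were higher and 956 lower with TMM, against 796 and 775 with RLE and 690 and 637 with DESeq2, and the same 7 members fell in all 3. RLE moved the median of all genes to 0.029. A 4-fold change simulated at these depths was found in 49% of cases and a 2-fold change in 3%.

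The genes of the store and its release fell with the pump. Hrc, the histidine-rich calcium buffer, gave 10.8 and 16.2 scaled CPM on the MI plates, from 2 UMIs in all, against 973 to 4880 on the 9 sham plates. Its pooled unscaled level in sham was 152 times that in MI (95% counting interval 42.2 to 1260), and the gene passed the test (edgeR adjusted p = 1.79e-11). Casq2, the main buffer of the store, gave 54.2 and 0 scaled CPM (5 UMIs) against 1460 to 3852 in sham. That is a pooled ratio of 45.9 (interval 19.7 to 142), and the fitted value was -6.22 ± 0.76 on the log2 scale (edgeR adjusted p = 3.16e-10). Ryr2, the release channel, measured 43.4 and 81.0 scaled CPM against 1277 to 3184. The Ryr2 groups were far apart, with a log2 fold change of -5.26 ± 0.71 (edgeR adjusted p = 6.47e-09). Tmem38a, the counter-ion channel, measured 54.2 and 48.6 scaled CPM against 695 to 1735. No MI plate of Tmem38a approached sham (log2 -4.54 ± 0.63, edgeR adjusted p = 1.20e-08).

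The mRNAs of the entry channel and the exchanger were also lower in MI, and the difference in size between them was not tested. Cacna1c gave 10.8 and 0 scaled CPM in MI, from 1 UMI, against 85.9 to 375 in sham. Its pooled ratio of sham to MI was 21.4 with a wide interval (3.81 to 850), and the gene passed the test (edgeR adjusted p = 7.57e-06). Slc8a1 measured 75.9 and 81.0 scaled CPM against 278 to 806 in sham, with a log2 fold change of -2.85 ± 0.58 (edgeR adjusted p = 6.05e-05). Without MI replicate 2, which leaves a single MI plate assumed to vary like the others, Slc8a1 no longer passed (log2 -2.67, adjusted p = 0.0545). Jph2, the dyad protein, measured 260 and 81.0 scaled CPM in MI against 139 to 546 in sham. For Jph2 the first MI plate lay within the sham range and the second below it, and its difference did not pass (log2 -0.99 ± 0.45, edgeR adjusted p = 0.0738). With cardiomyocyte wells taken by markers alone it did (log2 -0.90, adjusted p = 0.0208).

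Adding the 3 MI plates too small for the fit kept Pln far above the pump. Over all 19 MI wells on 5 plates, with 229782 UMIs, Atp2a2 held 56 UMIs, or 244 unscaled CPM (95% Poisson interval 184 to 316), and its plates ranged from 93.2 to 317 unscaled CPM. Pln held 1295 UMIs in the same wells, 5636 unscaled CPM with plates from 3569 to 7451. Ryr2 had 18 UMIs, Slc8a1 21, Tmem38a 13, Casq2 6, Cacna1c 2, Hrc 2 and Jph2 56, so the structural gene Jph2 was as abundant as the pump. Intervals from pooled UMIs cover counting error only.

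**Figure D2:**
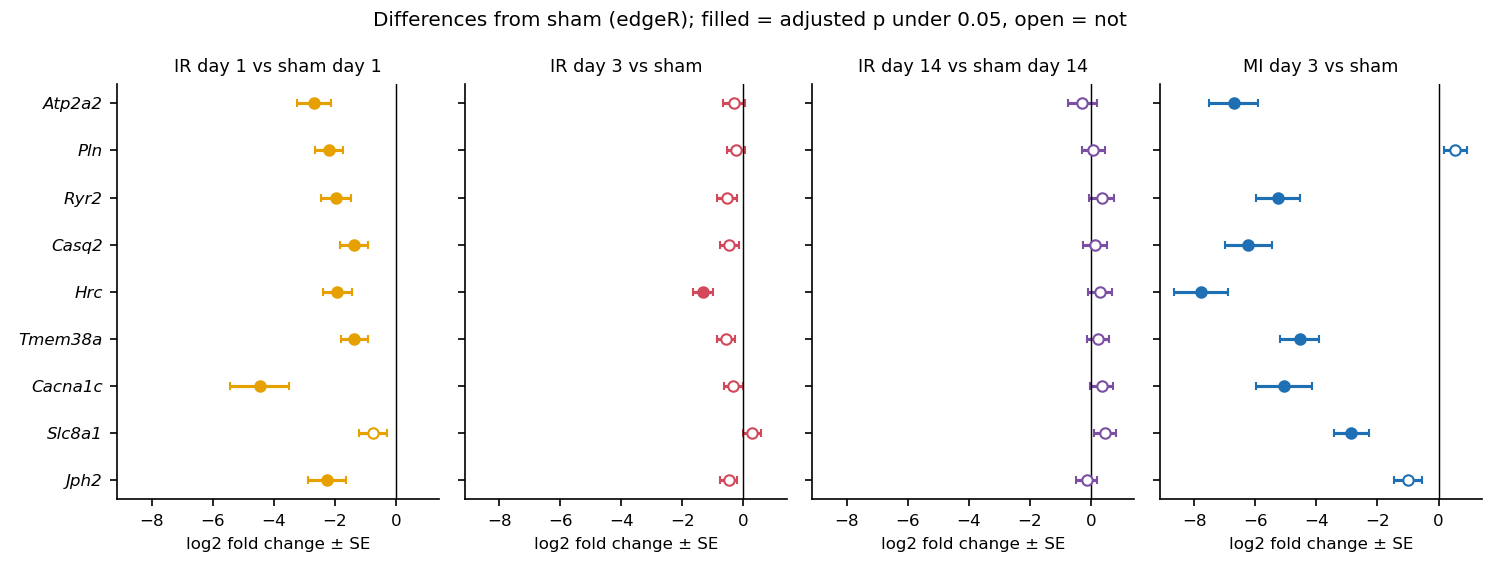
Log2 fold changes of the 9 detected genes against sham in the 3 IR groups and MI, with bars of 1 SE from the edgeR fit and filled symbols where the adjusted p was under 0.05. In MI against sham 7 genes lay between -2.85 and -7.77, while Pln was at 0.55 and Jph2 at -0.99.

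At IR day 1 the pump and its inhibitor were both low on the 3 fitted plates. Atp2a2 measured 3093, 3259 and 2400 scaled CPM on the 3 plates, all under the lowest day 1 sham plate (13790), a log2 fold change of -2.69 ± 0.55 (edgeR adjusted p = 0.000302), or 6.44-fold. Pln measured 587, 1033 and 717 scaled CPM against 2942 to 4409 in day 1 sham. It was lower on every plate, by a factor of 4.56 (log2 -2.19 ± 0.45, edgeR adjusted p = 0.000393). In all, 8 of the 9 genes were lower, against 8.15% of all tested genes lower and 11.3% in either direction. Each of the 8 had every IR plate below every sham plate, which also held for 25.2% of all genes. Of 12 cardiomyocyte markers, 7 were likewise below every day 1 sham plate, among them Myh6 at 4202 unscaled CPM (17240 in day 1 sham), Ttn at 6368 (19340), Mybpc3 at 591 (2038), Tnni3 at 2765 (4904) and Mb at 5979 (9962), and 0 were above. The summed cardiomyocyte markers took 6.33% of UMIs at IR day 1 against 9.37% in day 1 sham, and the summed neutrophil markers 0.0631% against 0.0197% and endothelial markers 0.0842% against 0.0486%, all 3 at the extreme of the 6 groups. Their part in the result was not tested.

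The other 6 that fell were Cacna1c, Jph2, Ryr2, Hrc, Casq2 and Tmem38a. Cacna1c had 1 UMI at IR day 1, giving 39.2, 0 and 0 scaled CPM against 177 to 375 in sham. Its pooled ratio of sham to IR was 15.1 (95% counting interval 2.66 to 598). Jph2 had log2 -2.25 ± 0.62 (edgeR adjusted p = 0.00957), Ryr2 -1.95 ± 0.49 (0.00417), Hrc -1.92 ± 0.47 (0.00344), Casq2 -1.37 ± 0.46 (0.0373) and Tmem38a -1.37 ± 0.44 (0.0278). Slc8a1 was the exception, with plates at 431, 79.5 and 607 scaled CPM against 480 to 806 in sham (log2 -0.74 ± 0.46, edgeR adjusted p = 0.298). The Slc8a1 groups overlapped, and the IR plates differed among themselves by more than the sham plates did.

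How many members fell at IR day 1 depended on the scaling. The members' median log2 fold change was -1.95 and that of all genes -0.57, while RLE moved the latter to 0.079. With RLE 4 members fell (Atp2a2, Pln, Cacna1c and Hrc) and with DESeq2 5, Ryr2 in addition. Over all genes, 140 were higher and 359 lower with TMM, against 312 and 117 with RLE and 350 and 78 with DESeq2. Leaving out 1 plate gave 5 to 8 members, with 5 without IR replicate 2 and 5 without IR replicate 3. The 12 wells on the 6 smaller IR day 1 plates (26442 UMIs) gave 1777 unscaled CPM of Atp2a2 and 3252 of Pln, against 2994 and 809 in the 24 wells of the fitted plates and 14280 and 2617 in day 1 sham. Over all 9 plates the pooled ratio of sham to IR was 5.29 for Atp2a2 and 1.87 for Pln, against 4.77 and 3.24 on the fitted plates. Replicate 4 gave 66 of the 86 Pln UMIs on the small plates, 63 of them in 1 well. Without it, a choice made after seeing the data, the small plates gave 1781 unscaled CPM of Atp2a2 and 1484 of Pln, and the pooled ratio over the other 8 plates was 5.06 for Atp2a2 and 2.90 for Pln. Pln exceeded the pump on 2 of these 6 plates, replicates 4 (66 against 23 UMIs) and 8 (12 against 11 UMIs in 1 well). Replicate 9 held 3 UMIs of each. Casq2, Slc8a1 and Cacna1c had 0 UMIs in the 12 wells, which allows up to 113 CPM each.

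By IR day 3 the pump and channels overlapped sham, and Hrc was the 1 member that passed the test, a call that several alternatives did not keep. Hrc measured 0, 1488, 1127, 1749 and 1290 scaled CPM on IR day 3 replicates 3 to 7, against 2923 to 4880 in day 1 sham and 973 to 4093 in day 14 sham. The log2 fold change of Hrc was -1.32 ± 0.33 (edgeR adjusted p = 0.00398), and -1.09 (adjusted p = 0.00675) without replicate 3. Against day 14 sham alone, where the plates overlapped, it did not pass (log2 -1.03, adjusted p = 0.0985). The call was also lost with at least 1 well per plate (log2 -1.28, edgeR adjusted p = 0.101), with cardiomyocyte wells taken by markers alone (log2 -1.18, adjusted p = 0.0838) or with the replicate number as a block (log2 -1.35, adjusted p = 0.0986). The call in the fit as reported makes 1 of 9 genes lower, where 2.02% of all tested genes were lower and 6.24% passed in either direction. Over all genes 186 were higher and 89 lower with TMM, against 248 and 65 with RLE, and DESeq2 called 238 genes, of which 45 lower. Atp2a2 measured 968, 24280, 15070, 23680 and 27760 scaled CPM on replicates 3 to 7. Replicate 3 stood far below the other plates, and the log2 fold change of Atp2a2 was -0.30 ± 0.36 with it (edgeR adjusted p = 0.738) and 0.0039 without it. Pln, at 2488 to 4023 scaled CPM, lay within the sham range on every plate (log2 -0.25 ± 0.29, edgeR adjusted p = 0.72). Ryr2 (log2 -0.54), Casq2 (-0.47), Cacna1c (-0.34), Tmem38a (-0.57) and Jph2 (-0.49) had negative and Slc8a1 (0.28) a positive value, none past the threshold. Without replicate 3 the values were -0.29 for Ryr2, -0.25 for Casq2, -0.24 for Cacna1c, -0.39 for Tmem38a, -0.50 for Jph2, 0.45 for Slc8a1 and -0.20 for Pln, again none past it.

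The MI and IR day 3 hearts were taken on the same day. Against IR day 3, the MI plates were lower for 7 of 9 genes, where 16.1% of all tested genes were lower. Over all genes 317 were higher and 708 lower with TMM, and 326 and 447 with DESeq2. The log2 differences were -6.41 ± 0.81 for Atp2a2, -6.45 ± 0.89 for Hrc, -4.72 ± 0.71 for Ryr2 and -3.14 ± 0.60 for Slc8a1, with Casq2, Cacna1c and Tmem38a between the first and last of these. For Pln the lower MI plate (4777 scaled CPM) exceeded the highest IR day 3 plate (4023), as held for 13% of all genes, without passing the test in edgeR (log2 0.81 ± 0.42, adjusted p = 0.159), and it passed in DESeq2 (log2 0.88, adjusted p = 0.00429). Jph2 did not pass (log2 -0.51 ± 0.48, edgeR adjusted p = 0.463), and without MI replicate 3 its value was 0.28. This comparison and that with sham share the MI plates, all sham plates serve both the IR day 3 and the MI comparison, and the day 1 and day 14 sham plates also serve those of IR day 1 and IR day 14.

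At IR day 14 no member passed the test against day 14 sham. Atp2a2 measured 25630, 25160 and 16830 scaled CPM, Pln 3830, 4088 and 3987, and Hrc 3146, 3261 and 2632. All of these lay within the range of the day 14 sham plates, while 1 IR plate lay above every sham plate for Ryr2 (3365 against at most 2861), Slc8a1 (810 against 696) and Tmem38a (1475 against 1421). The log2 fold changes of the 9 genes ran from -0.28 for Atp2a2 to 0.45 for Slc8a1, with SEs of 0.34 to 0.47, and 0 passed the edgeR test, where 0.182% of all genes (8, of which 7 higher) did. At an unadjusted p under 0.05 there were 212 genes, and DESeq2 called 1 gene, which was higher and no member. Changes of 4-fold were recovered in 74% of simulated cases here and of 2-fold in 20%. Between IR day 3 and day 14 Hrc rose (log2 1.32 ± 0.39, edgeR adjusted p = 0.0369), 1 of 9 genes where 0.999% of all genes were higher. All 3 day 14 plates lay above all 5 day 3 plates for Hrc, as for 8.47% of all genes, yet the call was lost in 6 of 8 fits that left out 1 plate, and held without IR day 3 replicate 3 (log2 1.09, adjusted p = 0.0485). Over all genes 44 were higher and 110 lower with TMM, against 29 and 140 with RLE and 16 and 99 with DESeq2.

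The IR effect differed between day 14 and day 1 for 5 members, with day 14 minus day 1 on the log2 scale at 4.80 ± 1.07 for Cacna1c (edgeR adjusted p = 0.00311), 2.40 ± 0.69 for Atp2a2 (0.026), 2.30 ± 0.63 for Ryr2 (0.0198), 2.26 ± 0.58 for Pln (0.0125) and 2.21 ± 0.61 for Hrc (0.0206). Among all tested genes 4.68% had a higher effect at day 14, and the median over all genes was 0.66. RLE brought that median to 0.021, left 1 member (Cacna1c) past the threshold and changed the split over all genes from 206 higher and 39 lower to 38 and 72, with 39 and 107 in DESeq2. Leaving out 1 plate gave 1 to 5 members. Cacna1c held 1 UMI over the 3 fitted IR day 1 plates, and its value ran from 4.06 to 8.9 with 1 plate left out.

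The balance of inhibitor to pump can be read without any scaling, as the Pln to Atp2a2 UMI ratio of a plate. The ratio was 0.093 to 0.225 on the 9 sham plates, 0.190, 0.317 and 0.299 at IR day 1, and 0.150, 0.163 and 0.237 at IR day 14. At IR day 3 it was 0.149, 0.175, 0.170 and 0.090 on 4 plates and 2.57 on replicate 3. The MI plates gave 24.0 and 26.8. MI thus lay over 7 log2 units above sham with no overlap (difference 7.35, exact permutation p = 0.0364, two-sided, 2 against 9 plates, the smallest this design allows, adjusted over 5 comparisons 0.182). With every plate of at least 1 cardiomyocyte-like well admitted, a choice made after the data were seen, 5 MI plates differed from 9 sham plates by 7.39 (exact permutation p = 0.000999, the smallest allowed, adjusted 0.005). Per the methods, fewer hearts than plates were used for MI, so some MI plates share a heart and this p is too small. The IR day 1 ratio exceeded sham by 0.44 on 3 plates (exact permutation p = 0.171) and by 1.56 on all 9 (exact permutation p = 0.00839, adjusted 0.021). The 6 plates added held 1 to 3 wells, down to 1 Pln and 3 Atp2a2 UMIs, and each weighed as much as a sham plate. The labels do not say which IR plates share a mouse, so the p over 9 plates may be too small. The IR day 3 difference was 0.70 (exact permutation p = 0.501) and turned to -0.13 without replicate 3. At IR day 14 the ratio differed from sham by 0.46 (exact permutation p = 0.214).

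Single wells carried the same contrast. Pln UMIs exceeded Atp2a2 UMIs in 17 of 19 MI wells (89.5%, exact binomial interval 66.9 to 98.7%), with medians of 44 Pln and 2 Atp2a2 UMIs. The corresponding wells were 5 of 248 in day 1 sham (2.02%), 9 of 238 in day 14 sham (3.78%, and 8 of 213 or 3.76% with the repeated plate entered once), 6 of 299 at IR day 3 (2.01%) and 5 of 361 at IR day 14 (1.39%). At IR day 1 they were 7 of 36 (19.4%, interval 8.19 to 36%), and 4 of the 6 wells at IR day 3 were on replicate 3. Wells of 1 plate share their source, so these intervals cover counting error only and say nothing of the spread between hearts. The sums over plates come from these same wells, so the counts of wells are not independent of them.

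**Figure D3:**
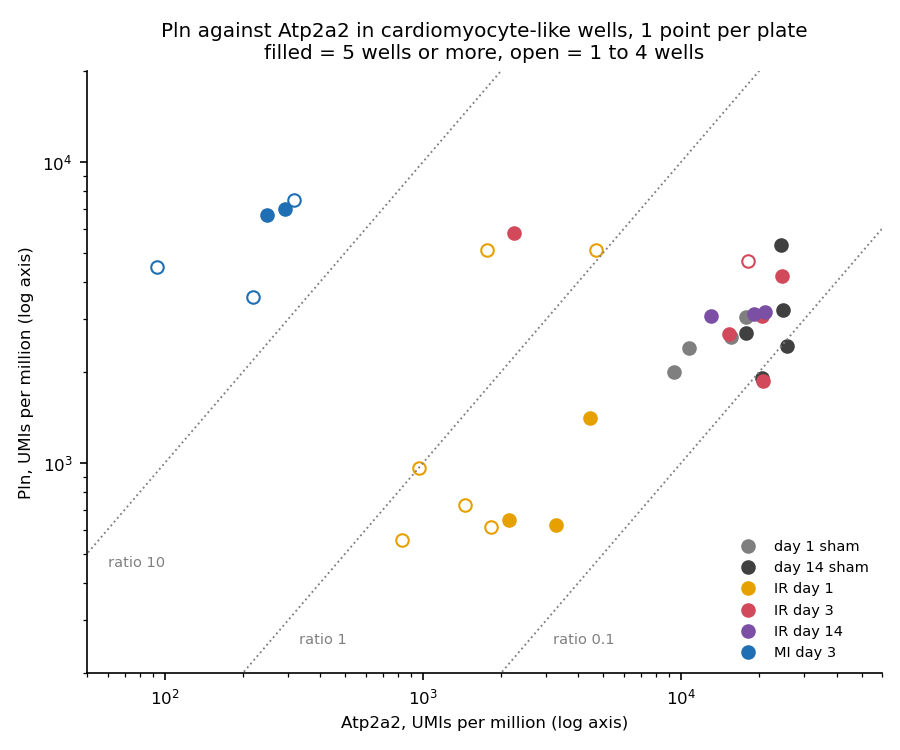
Pln against Atp2a2 in unscaled CPM, both on log axes; each point is a plate, filled with at least 5 cardiomyocyte-like wells and open with 1 to 4, and dotted lines mark Pln to Atp2a2 ratios of 0.1, 1 and 10. All 5 MI plates lay above the ratio of 10, and IR day 3 replicate 3 (ratio 2.57) lay away from the other IR day 3 plates.

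Depth and well quality moved with the MI contrast. Wells thinned to 1000 UMIs held Atp2a2 in 15.8% of MI wells (exact binomial interval 3.38 to 39.6%, unthinned 84.2%) against 99.6% in day 1 sham, and Pln in 73.7% (48.8 to 90.9%, unthinned 89.5%) against 85.1%. MI macrophage-like wells held Pln, which macrophages should lack, in 1.06% after thinning and Atp2a2, which also serves the endoplasmic reticulum of non-muscle cells, in 20.6%, with a median depth of 22834 UMIs against 8820 in the MI cardiomyocyte-like wells. In the other groups, wells with a mitochondrial share under 50%, a limit set after the data were seen, had lower Atp2a2 and Hrc but not Pln. In day 1 sham 12 such wells gave 6227 unscaled CPM of Atp2a2, 3201 of Pln and 651 of Hrc, against 14830, 2577 and 2679 in the other 236. In day 14 sham 13 such wells gave 10400 of Atp2a2, 6669 of Pln and 373 of Hrc (11 wells, 9829, 6485 and 405 with the repeated plate entered once), and at IR day 3 23 wells gave 13210, 3254 and 327. At IR day 14 11 such wells gave 10090 of Atp2a2, 3451 of Pln and 899 of Hrc. At IR day 1 5 such wells gave 1700 of Atp2a2, 3440 of Pln and 486 of Hrc, against 2992, 804 and 875 in the other 31, and Pln exceeded Atp2a2 in 3 of the 5. A single well of replicate 4 held 63 of the 85 Pln UMIs of those 5 wells, and the other 4 held 22 of Pln and 21 of Atp2a2. The 18 MI wells under the same limit gave 247 of Atp2a2, 5709 of Pln and 8.82 of Hrc, so Atp2a2 was below the low-mitochondrial wells of every other group, of which IR day 1 came nearest. Within the MI wells' own cluster Atp2a2 stood at 9973 unscaled CPM in day 1 sham, 2750 at IR day 1, 11470 in day 14 sham, 18650 at IR day 3, 13670 at IR day 14 and 244 in MI. Pln in the same wells stood at 1647 in day 1 sham, 10130 in day 14 sham, 1347 at IR day 1, 2334 at IR day 3, 2982 at IR day 14 and 5636 in MI. In day 14 sham 1 of the 5 wells held 214 of the 242 Pln UMIs, with 62 of Atp2a2. Without day 14 sham replicate 2, 4 of these wells remained, at 7556 unscaled CPM of Atp2a2 and 10730 of Pln.

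Cardiomyocyte identity and transcript length were measured beside it. In MI wells the mean of Tnnt2 was 12000 unscaled CPM (12330 in day 1 and 14370 in day 14 sham) and that of Myl2 9307 (7846 and 9141). Actc1 at 24780 (5433 and 14440, with a highest sham plate of 21480), Tnnc1 at 3530 (1318 and 1441) and Tpm1 at 15720 (5234 and 7810) were above every sham plate. Myh6 at 1702 (17240 and 19680), Ttn at 643 (19340 and 21900), Mybpc3 at 973 (2038 and 2641), Ckm at 521 (1863 and 1731) and Mb at 6672 (9962 and 14390) were below every sham plate, and so was Myl3 at 3478 (4742 and 5674). With genes in 3 equal groups by longest annotated transcript, the short group (360 to 2407 bases) had a median log2 fold change of 0.44 in MI against sham, and the long group (4156 to 106824 bases) one of -1.05. Pln (2334 bases), Hrc (2411), Casq2 (2556) and Tmem38a (2124) have nearly the same length and moved apart in MI. Wells with over 0.5% of UMIs from markers of another cell type were 2 of 19 in MI and 74 of 299 at IR day 3. Summed macrophage markers took 0.0274% of UMIs in the MI wells and 0.00603 to 0.0975% in the other groups, and summed fibroblast markers 0.111% against 0.032 to 0.343%, both highest at IR day 3. The part that mitochondrial share, depth, Rn45s and length play in the result was not tested.

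Across the other cell types of the same hearts the members were lower than in sham cardiomyocytes, and in MI the level of the pump in cardiomyocyte-like wells lay among those of the other types. In MI, Atp2a2 stood at 246 ± 33.9 unscaled CPM in macrophage-like (n = 5 plates), 354 ± 37.9 in fibroblast-like and 227 ± 85.4 in endothelial-like wells. The fitted MI cardiomyocyte plates gave 270 ± 29.9 unscaled CPM (n = 2), within this range. Neutrophil-like wells were lower on average and spread widely, with 107 ± 116 (n = 5 plates, 49 wells). Pln still separated the types, with 6828 ± 214 in the cardiomyocyte-like wells against 17.3 ± 13.7 in macrophage-like, 4.26 ± 1.84 in fibroblast-like, 9.84 ± 12.1 in endothelial-like and 42.2 ± 47.5 in neutrophil-like wells. Slc8a1 stood at 54.2 ± 6.60 in macrophage-like and 46.0 ± 11.8 in fibroblast-like wells of MI hearts, against 101 ± 17.4 in the cardiomyocyte-like wells. In day 1 sham, Atp2a2 was 13400 ± 3964 unscaled CPM in cardiomyocyte-like, 1862 ± 613 in endothelial-like, 868 ± 595 in fibroblast-like and 544 ± 155 in macrophage-like wells. Endothelial-like wells of day 1 sham also held Pln at 616 ± 186 and Hrc at 286 ± 249 unscaled CPM, both cardiomyocyte genes, and the part of free RNA in these levels was not tested.

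**Figure D4:**
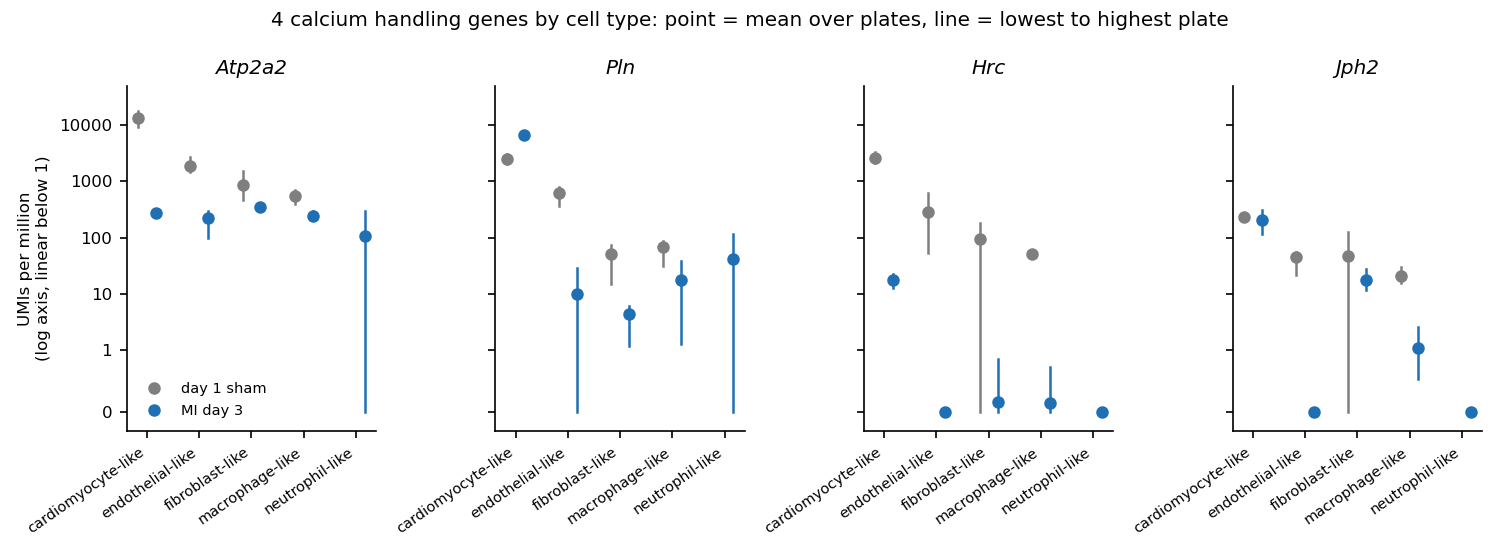
Unscaled CPM of 4 members by cell type and group; points are means over plates and lines run from the lowest to the highest plate, with no day 1 sham plate of enough neutrophil-like wells. In MI Atp2a2 lay at 246 to 354 on average in macrophage-like, fibroblast-like and cardiomyocyte-like wells and at 107 in neutrophil-like wells, whereas Pln was 6828 in cardiomyocyte-like wells and 4.26 to 42.2 in the others.

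Genes working with the members did not all move with them. In MI against sham, of the 12 tested genes of the release unit and store 5 fell and 5 rose. Those that fell included sarcalumenin Srl (log2 -3.89 ± 0.62), Asph (-3.87 ± 0.65), which encodes junctin, the chaperone Calr (-2.56 ± 0.55) and triadin Trdn (-2.35 ± 0.52). Those that rose included Fkbp1a (2.02 ± 0.39), which stabilises release channels. Of 7 pump regulators 4 rose and 0 fell, where 13.4% of all tested genes rose (590 with TMM, 796 with RLE). The list's median was 1.11, against -0.25 for all genes and 0.44 for genes with short transcripts. They were the small heat shock protein Hspb6 (1.31 ± 0.36) and the phosphatase catalytic subunits Ppp1cc (1.57 ± 0.45), Ppp1ca (1.19 ± 0.41) and Ppp1cb (1.11 ± 0.39).

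All 6 tested genes of sarcolemmal extrusion and sodium coupling fell in MI, with a list median of -2.86 against -0.25 for all genes. They included the sodium pump beta subunit Atp1b1 (-2.88 ± 0.61) and the pump regulator Fxyd1 (-2.42 ± 0.50). Of all tested genes 21.7% fell and 35.1% passed in either direction in this comparison, and the shares in the channel subunit, dyad, mitochondrial and beta-adrenergic lists were 2 of 5, 2 of 8, 2 of 6 and 2 of 6. Of the 5 channel subunits and regulators Cacna2d1 (-4.03 ± 0.70) and Ahnak (-1.38 ± 0.49) fell, and of 8 dyad genes Cmya5 (-3.81 ± 0.66) and Speg (-2.22 ± 0.51) fell. Of 6 mitochondrial calcium genes the outer membrane channel Vdac2 rose (1.23) and the inner membrane protein Letm1 fell (-1.84). Of 6 beta-adrenergic genes Adcy6 (-3.05 ± 0.66) and Adrb1 (-2.25 ± 0.80) fell, and the 1 tested gene of inositol trisphosphate signalling did not pass. Of 10 stress genes 5 rose, among them Sprr1a (9.50 ± 0.99) and Nmrk2 (5.50 ± 0.47), and 1 fell, Clu (-5.08 ± 0.77).

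At IR day 1, where 11.3% of all tested genes passed, in the release list Asph (log2 -2.36) and Srl (-1.81) fell and Calr (1.14) rose, Tcap (-2.24) and Cmya5 (-2.03) fell in the dyad list, Vdac3 (-2.37) and Vdac1 (-2.01) among mitochondrial genes and Adcy6 (-3.77 ± 0.77) among beta-adrenergic genes. None of the tested pump regulators, channel subunits or sodium-coupling genes passed, 6 of 10 stress genes rose, and Nmrk2 reached 5.38. At IR day 3, where 6.24% of all genes passed, Speg (-0.94) fell and Prkar1a (1.01) rose, as did 1 of 12 release genes, and 1 of 6 genes of extrusion and sodium coupling fell, while 9 of 10 stress genes rose, Sprr1a by 10.25. At IR day 14 against sham, 0 genes of the calcium lists passed, and Myh7 (4.17) and Nppa (3.07) of the stress list were higher.

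Within IR day 3 plates, wells with at least 1 UMI of the stress transcripts Sprr1a or Nmrk2 were compared with wells that had none, on replicates 4, 6 and 7, which had enough of each (70 and 80, 8 and 8, and 53 and 57 wells). The difference is in log2 of unscaled CPM plus 10, positive minus negative wells. Atp2a2 was lower in the positive wells on 3 of 3 plates (-0.31 ± 0.10, mean ± SD) and Pln higher on 3 of 3 (0.24 ± 0.05). Casq2 (-0.35 ± 0.24), Hrc (-0.40 ± 0.14) and Tmem38a (-0.48 ± 0.23) were also lower on 3 of 3 plates, whereas Ryr2, Cacna1c, Slc8a1 and Jph2 went both ways. The exact permutation p was 0.25 for each of the 5, the smallest that 3 plates allow, so none could pass. The median depth of positive and negative wells was 5750 and 2295 UMIs on replicate 4, 1746 and 2218 on replicate 6 and 2345 and 1832 on replicate 7. The mitochondrial share was lower in the positive wells on 3 of 3 plates (69.5 against 72.4%, 62.0 against 79.6% and 76.7 against 82.3%). The part of depth and of mitochondrial share in these differences was not tested.

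Over the 22 fitted plates, the members whose levels ranked most like Atp2a2 were Casq2 (Spearman's rho 0.85), Ryr2 (0.75) and Tmem38a (0.67), followed by Cacna1c (0.65), Slc8a1 (0.62), Hrc (0.60) and Jph2 (0.59). Pln, its direct partner, ranked least like it (0.28). Among all 4405 tested genes the closest were Abcc9 (0.91), a subunit of ATP-sensitive potassium channels, Tspan3 (0.89), the citrate synthase gene Cs (0.89), and Hadhb and Lamp1 (0.88 each). These values describe 22 plates of 6 groups that share libraries and depth, and no test was made of them.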

How the data were processed

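Single cells sorted into 36 plates of wells were profiled by SORT-seq. The authors mapped reads with BWA (version not given in the sources used here) to GRCm38 (mm10) and deposited raw UMI counts per gene and well. All 174110208 deposited values were whole numbers. The genes and gene lists were chosen with earlier results of these data known. Wells of at least 1000 nuclear UMIs were clustered with scanpy 1.11.5 (2000 variable genes without the members, 30 components, 15 neighbours, Leiden resolution 1), and clusters were named where at least 3 markers of a type stood out. No doublet caller was run, since 1 cell was sorted per well. UMIs of cardiomyocyte-like wells were summed per plate (at least 5 wells) and tested in edgeR 4.0.16 by the quasi-likelihood test with TMM scaling, filterByExpr and Benjamini-Hochberg adjustment, in 1 fit over 22 plates, 6 groups and 4405 genes. In R 4.3.3, DESeq2 1.42.0 was an alternative. Ratios were compared by two-sided exact permutation tests over plates. Named genes were all members, plus up to 4 called genes per list by adjusted p. Trdn was named after its values were seen. Some genes of the lists are not reported here. The fit was tested on simulated counts (200 changed genes). Replicate numbers did not pair plates. Alternatives covered scaling, filters, depth, wells per plate, copied wells, controls and each plate in turn.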

Additional observations from a re-analysis of the deposited data

Results flagged for a closer look

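In 33 groups of 4 to 10 plates the highest or lowest plate was compared with the spread of the rest, which by chance sets apart a plate in about 1 group in 20, and 4 plates stood apart. Casq2 in day 1 sham was 2628 scaled CPM on replicate 1, the highest of 4 plates whose others lay at 2085 to 2133. Tmem38a at IR day 3 was 69.1 scaled CPM on replicate 3, the lowest of 5. The log2 Pln to Atp2a2 ratio at IR day 3 was 1.36 on that same plate, which held 5 wells and 6209 UMIs. Jph2 at IR day 3 was 200 scaled CPM on replicate 5, the lowest of 5 plates, of which the others lay at 262 to 277.

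The IR effect differed between day 14 and day 1 by the interaction term of the edgeR fit, which set apart Atp2a2 (2.40 on the log2 scale), Pln (2.26), Ryr2 (2.30), Cacna1c (4.80) and Hrc (2.21). With RLE scaling only Cacna1c passed, a gene with 1 UMI over the fitted IR day 1 plates. Atp2a2 lost its call in 8 of the fits that left out 1 plate, Hrc in 4, Ryr2 in 2 and Pln in 1.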

How the results depend on the processing

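With few wells in MI and at IR day 1, 1 plate or 1 choice moved the counts of genes called, while the fall of Atp2a2, Ryr2, Casq2, Cacna1c, Hrc and Tmem38a in MI against sham passed in every fit run that held MI plates. The cause was not tested for any of the values below. Of single-gene values over all alternatives other than a left-out plate, 966 kept their direction and side of the threshold, 44 lost the call, 6 gained it and 10 reversed. Of those with a plate left out the counts were 664, 35, 0 and 12.

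Members called at IR day 1 fell from 8 to 4 with RLE scaling, 5 with at least 10 wells per plate, 4 with wells of at least 2000 UMIs, 5 without wells holding other markers and 5 with DESeq2. The 1 member of IR day 3 became 0 with at least 1 well per plate, with markers alone and with day 14 sham alone, and that between IR day 14 and day 3 became 0 with at least 1 well, 2000 UMIs, markers alone and a fit of only the groups compared. The 5 members of the interaction became 1 with RLE and 3 with 2000 UMIs, without wells holding other markers and with DESeq2.

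Genes called at IR day 1 (499) became 202 with 10 wells, 128 with 2000 UMIs, 310 without wells holding other markers and 320 in the fit of only the groups compared. At IR day 3 (275) they became 422 without the filter, 417 with 10 wells, 121 with 1 well, 150 with markers alone, 162 with day 14 sham alone and 173 with only the groups compared. At IR day 14 (8) they became 17, 4, 3, 1, 14 and 1 without the filter, with 1 well, 2000 UMIs, markers alone, only the groups compared and DESeq2. MI against IR day 3 (1025) became 455 with only the groups compared, IR day 14 against day 3 (154) 65 with 1 well, and the sham days (31) 47 with 10 wells, 15 with 1 well, 4 with markers alone and 58 with DESeq2. The interaction (245) became 110 with RLE, 81 with 10 wells, 143 with 1 well, 41 with 2000 UMIs, 111 without wells holding other markers and 146 with DESeq2.

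Replicate numbers did not pair the plates: 26 pairs of the same number had a median correlation of deviations of -0.002, with 2 over 0.1. With the replicate number as a block, genes called became 56 at IR day 3, 1029 in MI, 269 in MI against IR day 3, 8 in IR day 14 against day 3, 7 between sham days and 62 in the interaction, and members called 0 at IR day 3, 0 in IR day 14 against day 3 and 3 in the interaction. The block turned Atp2a2 at IR day 14 to 0.67, Slc8a1 in IR day 14 against day 3 to 0.50, and between sham days Atp2a2 to -0.34 and Casq2 to -0.32.

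Other reversals were near 0: Pln at IR day 14 (-0.093 with 10 wells, -0.051 with 2000 UMIs, -0.0010 with DESeq2), Jph2 at IR day 14 (0.019 without the filter) and Slc8a1 between IR day 3 and 14 (0.079 without the filter, 0.030 with 1 well). The log2 Pln to Atp2a2 ratio moved to 1.58 (IR day 1) and 7.15 (MI) with markers alone, 1.56 and 7.39 with 1 well, and -0.24 (IR day 3) and 0.33 (IR day 14 against day 3) with 2000 UMIs. Unthinned shares were 95.6, 96.6, 75.0, 95.7 and 97.5% for Pln in the sham and IR groups, and 94.4% (IR day 1) and 84.2% (MI) for Atp2a2. Requiring 2 UMIs of Sprr1a and Nmrk2 together turned Ryr2 to -0.037, Cacna1c to -0.051, Slc8a1 to 0.082 and Jph2 to 0.070. The ratio with 1 well per plate, members among the clustering genes and replicate 7 of day 14 sham without its second table were chosen after seeing the data. At 10 wells no MI plate remained, and the IR day 1 ratio could not be given with 2000 UMIs.

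Leaving out 1 plate gave 217 to 467 genes at IR day 1, 151 to 281 at IR day 3, 474 to 1544 in MI (474 without MI replicate 2, 970 without replicate 3), 4 to 12 at IR day 14, 146 to 1148 in MI against IR day 3 (146 without MI replicate 2, 549 without replicate 3), 89 to 162 in IR day 14 against day 3, 23 to 43 between sham days and 83 to 229 in the interaction. Members called were 5 to 8, 1 to 1, 6 to 7, 0 to 0, 6 to 7, 0 to 1, 0 to 0 and 1 to 5 in that order. The ratio ranged from 0.30 to 0.67 at IR day 1, -0.13 to 1.07 at IR day 3, 7.26 to 7.42 in MI, 0.26 to 0.64 at IR day 14 and -0.87 to 0.34 between IR day 14 and day 3. Members that reversed without 1 plate ranged as follows: Atp2a2 at IR day 3 from -0.51 to 0.0039 (without replicate 3) and between IR day 14 and day 3 from -0.014 (without IR day 3 replicate 3) to 0.56, Pln at IR day 14 from -0.077 to 0.32 and between sham days from -0.092 to 0.25, Jph2 at IR day 14 from -0.25 to 0.085 and in MI against IR day 3 from -1.52 to 0.28 (without MI replicate 3), Slc8a1 between IR day 14 and day 3 from -0.18 to 0.27, and in the Sprr1a and Nmrk2 split Ryr2 from -0.086 to 0.39, Cacna1c from -0.38 to 1.05 and Slc8a1 from -0.30 to 0.0066. Depth limits the low genes: Cacna1c and Hrc rest on 1 and 2 UMIs in the fitted MI plates, and Cacna1c on 1 UMI in those of IR day 1.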

Other observations

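Some members were also counted outside cardiomyocytes. In MI hearts Slc8a1, the exchanger, held 429 UMIs in 282 macrophage-like wells (54.2 ± 6.60 unscaled CPM, n = 5 plates) and 333 UMIs in 132 fibroblast-like wells (46.0 ± 11.8), but 3 UMIs in 57 endothelial-like wells (2.11 ± 3.54). The muscle genes Ryr2 and Casq2 were at 1.03 ± 0.77 and 1.65 ± 2.03 in the same macrophage-like wells. Slc8a1 was thus above these muscle genes in both wound cell types.

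Fibroblast-like wells of MI hearts also held Jph2 (126 UMIs, 17.5 ± 6.36 unscaled CPM) and Cacna1c (78 UMIs, 10.7 ± 4.36), against 1.09 ± 0.82 and 0.657 ± 0.884 in macrophage-like wells (n = 5 plates each). Ryr2 in the same fibroblast-like wells was at 0.395 ± 0.618. These differences between cell types were not tested. In day 1 sham the same types held Slc8a1, Jph2 and Cacna1c with at most 7 UMIs each in 21 wells, too few to compare.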
